A study of Homo sapiens with 16 samples.

Results

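The 37 genes of the human mitochondrial genome were followed through 16 PRO-seq libraries of LNCaP, an androgen-sensitive cell line from a prostate cancer metastasis. The members were all genes whose symbol starts with MT-, 37 of the 60605 identifiers in the count tables: 2 rRNA genes, 13 mRNA genes and 22 tRNA genes. Nuclear copies of mitochondrial genes, such as MTND1P23, were kept apart. PRO-seq extends RNA polymerases that are engaged on DNA by a run-on with tagged nucleotides, so its counts follow RNA being made and not RNA that has accumulated. The study asked how androgen receptor activity and DNA damage act on transcription. The mitochondrial genes stand outside that question and are transcribed by another polymerase.

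The libraries fell into 6 groups in 2 batches. Batch 1 held mock cells and cells given 6 Gy of ionizing radiation (IR), with replicates 1 and 2 in each group and 2 libraries, t1 and t2, for each replicate. Batch 2 held DMSO vehicle, vehicle with 6 Gy, enzalutamide (10 µM) and enzalutamide with 6 Gy, with replicates 3 and 4 in each group and 1 library for each replicate. Enzalutamide is an antagonist of the androgen receptor. Drug or vehicle was given for 90 min in all, and irradiated cells were collected 60 min after IR. The only treatment protocol describes these vehicle and drug arms, and neither a vehicle nor a time is stated for batch 1. All groups were the same cell line, with no genetic change named, grown in medium with serum. No label explains t1 and t2 or states that replicates were separate cultures, so p-values measure the spread between these samples. The t1 and t2 counts of a replicate were summed unless stated otherwise, which gave 2 replicates in each group.

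The mitochondrial genome is a small circle that is transcribed by POLRMT, a single-subunit polymerase unlike the nuclear enzymes, with TFAM, TFB2M and TEFM as its factors. Long transcripts start at promoters of the heavy and the light strand in the control region and are cut at the tRNAs that lie between most other genes. The heavy-strand promoter serves both rRNAs, 12 mRNAs and 14 tRNAs, while the light-strand promoter serves MT-ND6 and 8 tRNAs. The mRNAs encode core subunits of respiratory complexes I, III and IV and of the ATP synthase. Within MT-TL1, the gene of a leucine tRNA directly after the rRNAs, lies the binding site of MTERF1, a factor known to stop transcription in vitro.

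Total counts were between 3438642 and 9363458 in the batch 1 libraries and between 10494563 and 19905824 in those of batch 2. Of 10 prostate luminal markers, all were detected in both batches, with means between 56.4 and 1036 CPM (counts scaled to a common library total) in batch 1 and between 10.4 and 1181 in batch 2. KLK3, which encodes PSA, was the lowest of them in batch 2 at 10.4 CPM, against 161 in batch 1. The 12 markers of immune, endothelial, stromal, basal and neuroendocrine cells had means of at most 29.7 CPM in batch 1 and 14.7 in batch 2, with CHGA at 0 counts. With enzalutamide averaged over IR in batch 2, 3 of the 10 luminal markers were called lower by edgeR's quasi-likelihood test, where 0.0628% of all genes passed. Among the 3 were SLC45A3 (log2 fold change -0.57, adjusted p = 0.000828 by edgeR) and TMPRSS2 (-0.58, adjusted p = 0.00123 by edgeR), known targets of the androgen receptor. SLC45A3 and TMPRSS2 were named after their values were seen.

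The mitochondrial genes took 3.24% to 5.06% of all counts in the 4 mock libraries of batch 1, and 2.86% to 5.38% in its 4 irradiated libraries. In batch 2 they took 0.706% and 0.934% with vehicle, 0.660% and 0.683% with vehicle and IR, 0.875% and 0.570% with enzalutamide, and 0.689% and 0.714% with both. The mean over replicates was 3.98% ± 0.438 (SD, n = 4) in batch 1 and 0.729% ± 0.118 (SD, n = 8) in batch 2. No library of one batch reached the range of the other. Within batch 1 the shares fell apart in another way. The mock t1 and irradiated t2 libraries lay between 4.25% and 5.38%, and the mock t2 and irradiated t1 libraries lay between 2.86% and 3.94%. This division runs across the treatment and bears on every IR result in batch 1, so it is described before them.

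**Figure D1:**
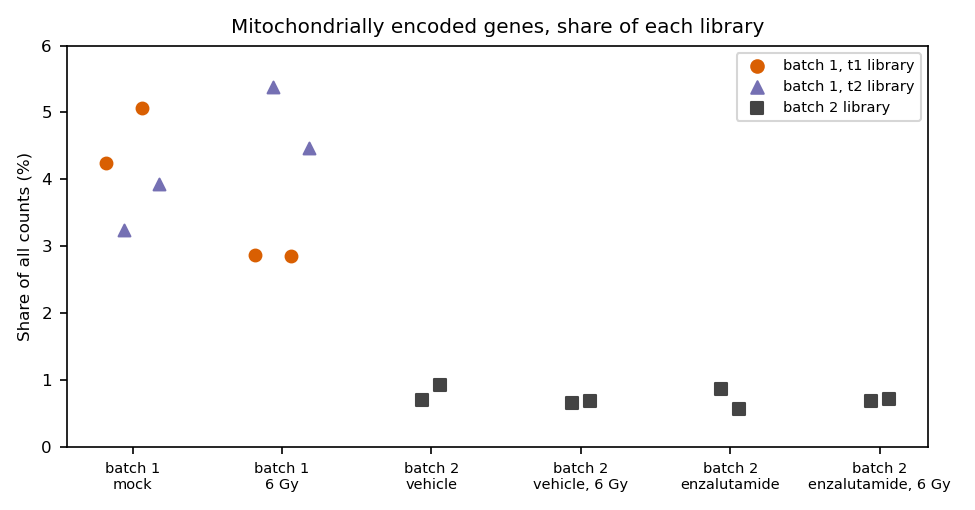
Share of all counts taken by the 37 mitochondrially encoded genes (y axis, percent) in each of the 16 libraries (points), by group (x axis). Batch 1 lies between 2.86% and 5.38% and batch 2 between 0.570% and 0.934%, and in batch 1 the t1 libraries (circles) are above the t2 libraries (triangles) in mock cells and below them in irradiated cells.

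MT-RNR2, the 16S rRNA of the mitochondrial ribosome, had the highest count of all members in both batches. It reached 7531 and 9766 CPM in mock cells and 8178 and 7940 CPM in irradiated cells of batch 1. In batch 2 it reached 1775 and 2089 CPM with vehicle, 1466 and 1690 with vehicle and IR, 2083 and 1336 with enzalutamide, and 1585 and 1684 with both. The 12S rRNA, MT-RNR1, lies before MT-RNR2 on the same transcript and was lower: 1767 and 2289 CPM in mock cells, 2194 and 2980 in irradiated cells of batch 1, and 421 to 848 (median 566) in batch 2. In both rRNAs the batches did not overlap, and mock and irradiated cells of batch 1 overlapped or lay close together. In batch 2 both vehicle values lay above both values with vehicle and IR, and the enzalutamide values lay on either side of those with enzalutamide and IR.

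Levels were set side by side between genes only per length, as CPM per kilobase (density), with gene lengths from RefSeq on GRCh38.p14. In batch 1 the mean density was 5358 ± 628 for MT-RNR2 and 2419 ± 527 for MT-RNR1 (SD, n = 4). MT-ND1, the first mRNA after the rRNAs and a subunit of complex I, had 4535 ± 729. Density was lower in MT-ND2 (2090 ± 294), also of complex I, and lowest among mRNAs in MT-CO1 (1150 ± 163), the catalytic subunit of complex IV. MT-CO2 (1367 ± 168) and MT-CO3 (1363 ± 128), the other subunits of complex IV made here, were close to MT-CO1. Further along the heavy-strand transcript the values were higher again, with 2837 ± 294 in MT-ND4L, 3312 ± 401 in MT-ND4 and 2741 ± 312 in MT-ND5 of complex I, and 2477 ± 341 in MT-CYB, the cytochrome b of complex III. Density along the strand was therefore not a steady decline from the promoter: in each of the 4 replicates MT-ND4 lay above MT-CO1.

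Batch 2 had lower values, and the order of the genes differed in part. The mean density was 1099 ± 172 for MT-RNR2, 626 ± 131 for MT-RNR1, 514 ± 76.5 for MT-ND1, 281 ± 51.3 for MT-ND2, 230 ± 35.8 for MT-CO1 and 589 ± 107 for MT-ND4 (SD, n = 8). MT-ND1 thus lay below MT-RNR1 and MT-ND4 there and above both in batch 1. MT-CO2 (188 ± 33.0) was the lowest mRNA in batch 2, where MT-CO1 was lowest in batch 1. The ATP synthase subunits MT-ATP8 and MT-ATP6 had 2906 ± 312 and 1562 ± 153 in batch 1, and 428 ± 81.8 and 258 ± 50.6 in batch 2. MT-ATP8 overlaps MT-ATP6, and MT-ND4L overlaps MT-ND4, so how the counting split shared reads affects these 4 values, and that rule is not given in the sources used here. MT-ND3, a small subunit of complex I, had 2325 ± 249 in batch 1, above MT-CO1, and 211 ± 30.0 in batch 2, below it.

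**Figure D2:**
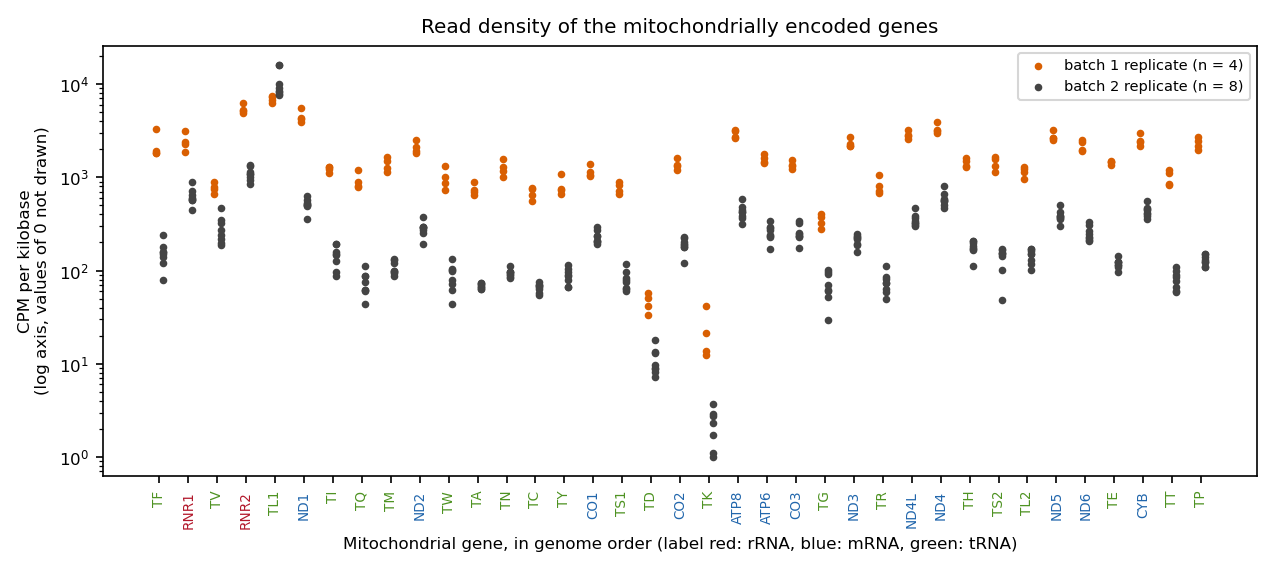
Read density (y axis, CPM per kilobase, log axis) of each mitochondrial gene in genome order (x axis). Points are replicates, 4 in batch 1 and 8 in batch 2. Batch 1 lies above batch 2 in every gene except MT-TL1, which is the highest gene of batch 2 at a mean of 10370, and MT-TD and MT-TK lie far below the other tRNAs.

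The 3 classes did not hold the same share of mitochondrial counts in the 2 batches. Messenger RNA genes held 68.1% ± 1.89 in batch 1 (SD, n = 4) and 55.7% ± 2.75 in batch 2 (SD, n = 8). The rRNA genes held 26.8% ± 1.63 and 31.7% ± 1.86. The tRNA genes held 5.05% ± 0.291 and 12.6% ± 1.96. The replicates of the 2 batches did not overlap for mRNA and tRNA genes, and they overlapped by a narrow margin for rRNA genes (25.3% to 29.1% against 29.0% to 34.8%).

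The larger tRNA share in batch 2 came from 1 gene, MT-TL1. It lies on chromosome MT from 3230 to 3304, directly after MT-RNR2 (1671 to 3229) and 2 bases before MT-ND1 (3307 to 4262), and it is read from the heavy-strand promoter. MT-TL1 had 502 and 554 CPM in mock cells and 546 and 467 CPM in irradiated cells of batch 1. In batch 2 it had 749 and 1196 CPM with vehicle, 610 and 590 with vehicle and IR, 1192 and 681 with enzalutamide, and 572 and 634 with both. It was the only member whose batch 1 replicates all lay below the batch 2 replicates, and between single libraries that gap was less than 1 CPM wide (571.5 at its edge). MT-TL1 held 22.9% to 27.8% of all tRNA counts in batch 1 and 79.2% to 87.9% in batch 2. Without it, the other 21 tRNAs held 3.74% ± 0.296 of mitochondrial counts in batch 1 and 2.06% ± 0.217 in batch 2, which reverses the order of the batches.

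Per length, MT-TL1 was 1.18 to 1.39 times as dense as MT-RNR2 in the batch 1 replicates and 7.26 to 11.9 times in those of batch 2. Its mean density was 6898 ± 540 (SD, n = 4) in batch 1 and 10370 ± 3505 (SD, n = 8) in batch 2, the highest of all members in both. In batch 1 this ratio differed by library, and both irradiated t2 libraries, at 0.943 and 0.986, had MT-TL1 less dense than MT-RNR2.

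**Figure D3:**
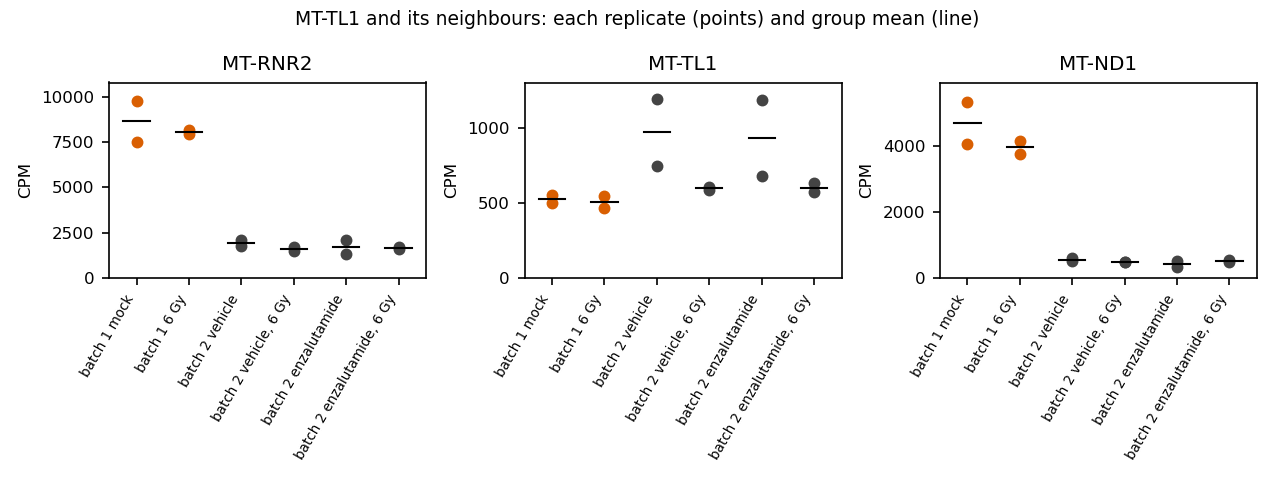
CPM (y axes, starting at 0) of MT-RNR2, MT-TL1 and MT-ND1, which are adjacent in the genome, in each group (x axis). Points are replicates, 2 in each group, and lines are group means. MT-RNR2 and MT-ND1 are higher in batch 1 (orange), and MT-TL1 is higher in batch 2 (grey), where both irradiated groups lie between 572 and 634 CPM and the groups without IR between 681 and 1196.

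The remaining tRNAs were far less dense than MT-TL1. After it, MT-TP, a proline tRNA read from the light strand, had 2314 ± 326 in batch 1, and MT-TF, the phenylalanine tRNA that opens the heavy-strand transcript, had 2218 ± 710 (SD, n = 4). At the other end, MT-TK (lysine) had 0.873 to 2.93 CPM in batch 1 and MT-TD (aspartate) 2.24 to 3.86 CPM. The next lowest, MT-TG (glycine), had 18.8 to 27.6 CPM. In batch 2 MT-TK had between 0 and 5 counts in a library, too few for the filter on low counts, so 36 of the 37 members were tested in batch 2 and 37 in the fits that held the summed replicates of batch 1. MT-TD and MT-TK lie on either side of MT-CO2, which had 935 ± 115 CPM in batch 1 (SD, n = 4), and their low counts were seen in all 16 libraries.

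Batch 1 was compared with batch 2 in the 8 samples without enzalutamide, with IR as a covariate, by edgeR's quasi-likelihood test. All 37 members passed an adjusted p of 0.05, 36 of them higher in batch 1 and 1, MT-TL1, lower. Of all 29195 genes tested, 62.0% passed in either direction and 32.7% were higher in batch 1. The median log2 fold change was 3.05 over the members and 0.02 over all genes, so the members stood apart in size and direction more than in being called. The batches also differ in what cells were given (mock or vehicle), so batch and vehicle cannot be told apart. Neither can a smaller amount of mitochondrial material in a sample and less transcription from each genome. For 36 members the 4 batch 1 replicates all lay above all 8 batch 2 replicates in CPM, a count that was not made over all genes.

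The rRNAs had the lowest class median, 2.12, with log2 fold changes of 1.97 (SE 0.133) for MT-RNR1 and 2.28 (SE 0.125) for MT-RNR2. The 13 mRNAs lay between 2.36 for MT-CO1 and 3.43 for MT-ND3, with a median of 2.80. Complex I subunits were spread over most of that range, with 3.09 for MT-ND1, 2.83 for MT-ND2, 3.05 for MT-ND4L, 2.46 for MT-ND4, 2.80 for MT-ND5 and 3.17 for MT-ND6. MT-CYB had 2.52, MT-CO2 2.80, MT-CO3 2.41, MT-ATP8 2.71 and MT-ATP6 2.56.

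The tRNAs had a median of 3.39, above every mRNA but MT-ND3, and the widest range. MT-TP had the largest difference of all members (4.31, SE 0.0970, adjusted p = 5.11e-17 by edgeR), with 132 to 183 CPM in batch 1 and 7.43 to 10.25 CPM in batch 2. MT-TF had 3.76 (SE 0.195). The value of MT-TK, 3.69 (SE 0.515), rests on 0 to 5 counts in a batch 2 library, depends on the prior count of the fit and is no bound. MT-TV, the valine tRNA between the rRNA genes, had the smallest positive value (1.43, SE 0.113). MT-TL1 had -0.54 (SE 0.133, adjusted p = 0.00145 by edgeR). MT-TV, MT-RNR1 and MT-RNR2, with MT-TD and MT-TG (2.13 and 2.21), had the smallest of the 36 positive values. The first 3 of these lie in the first stretch of the heavy-strand transcript, but so does MT-TF, which opens it and had 3.76.

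**Figure D4:**
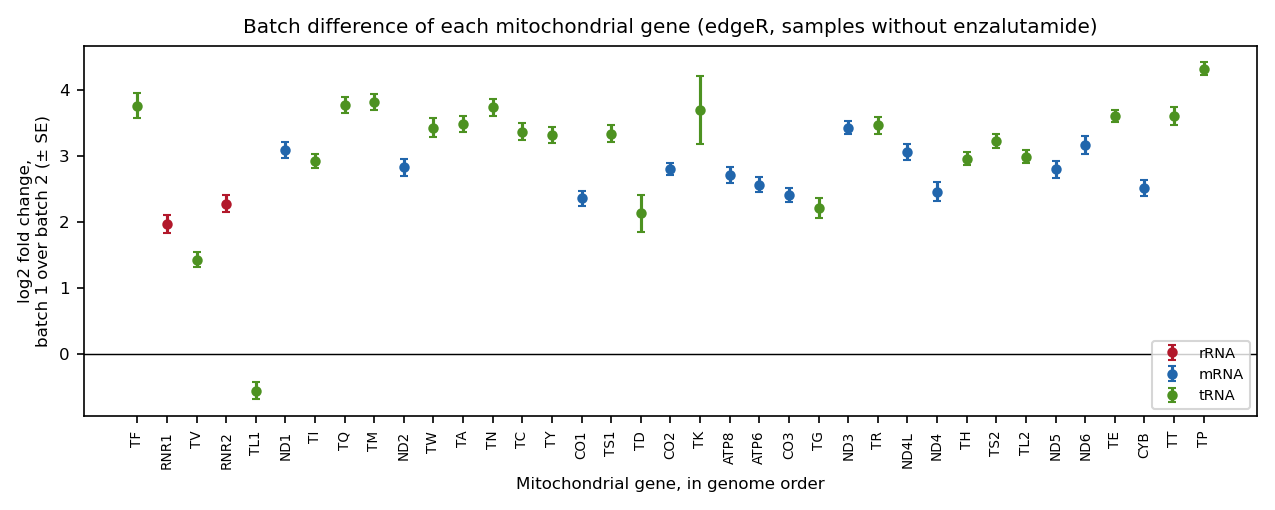
Log2 fold change of batch 1 over batch 2 (y axis, points, with bars for ± 1 SE) for each mitochondrial gene in genome order (x axis), from the 8 samples without enzalutamide. The values run from 1.43 (MT-TV) to 4.31 (MT-TP), with MT-TL1 alone below 0 at -0.54, and that of MT-TK rests on 0 to 5 counts in a batch 2 library.

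Inside batch 1, whether irradiated cells differed from mock cells depended on which t libraries were read. This comparison was added after the pattern had been seen, so it describes these libraries. In the test of this difference 43.7% of all genes passed. In the t1 libraries 29 members had both irradiated values below both mock values, and none had both above. In the t2 libraries 31 members had both irradiated values above both mock values, and 1, MT-TL1, had both below. The same counts were not made over all genes. The rRNA MT-RNR2 averaged 9241 CPM in mock and 6042 in irradiated t1 libraries, against 7791 and 10390 in t2 libraries. MT-ND1 averaged 5312 and 2930 CPM in t1 libraries and 4095 and 5264 in t2 libraries. MT-TM, the methionine tRNA, averaged 142.6 CPM in mock and 54.9 in irradiated t1 libraries, against 67.8 and 117.5 in t2 libraries.

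The difference between the t2 and the t1 effect of IR was fitted as an interaction in edgeR, with the 8 libraries entered singly. It passed an adjusted p of 0.05 for 35 of 37 members, all of them higher in t2, where 21.8% of all 23335 genes tested passed as higher in t2. The median log2 difference was 1.51 over the members and -0.07 over all genes. The rRNAs had 1.34 (MT-RNR1) and 1.20 (MT-RNR2), the mRNAs a median of 1.34, and the tRNAs a median of 1.71. MT-TK, with a mean of 1.56 CPM, had the largest value (2.75, SE 0.878), followed by MT-TE, the glutamate tRNA (2.54, SE 0.198). MT-TL1 (-0.09, SE 0.218, adjusted p = 0.766) and MT-TF (0.97, SE 0.498, adjusted p = 0.130) did not pass in this edgeR fit. MT-TL1 stayed between 454 and 572 CPM in all 8 libraries while the other abundant members moved. Because the 2 libraries of a replicate come from the same label, they are not independent samples, and these p-values are too small to stand for replicates.

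With t1 libraries alone, 22 of 36 members tested were lower after IR by edgeR and none was higher, against 7.52% of all genes called lower. With t2 libraries alone, 32 of 36 members tested were higher and none lower, against 23.0% of all genes called higher. The sums of t1 and t2 used below average over these opposite directions. What sets the mock t1 and irradiated t2 libraries apart from the others was not tested, and 43.7% of all genes were called in the same contrast. No label says whether t1 and t2 mean the same in mock and irradiated cells, and whether each library carries its right t label was not tested. The treatment labels were checked on CDKN1A, a p53 target known to rise after IR, chosen after its values were seen. It had 36.1 to 59.4 CPM in the 4 mock libraries and 519 to 586 in the 4 irradiated ones. Every t1 and t2 value here takes the t labels as given.

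**Figure D5:**
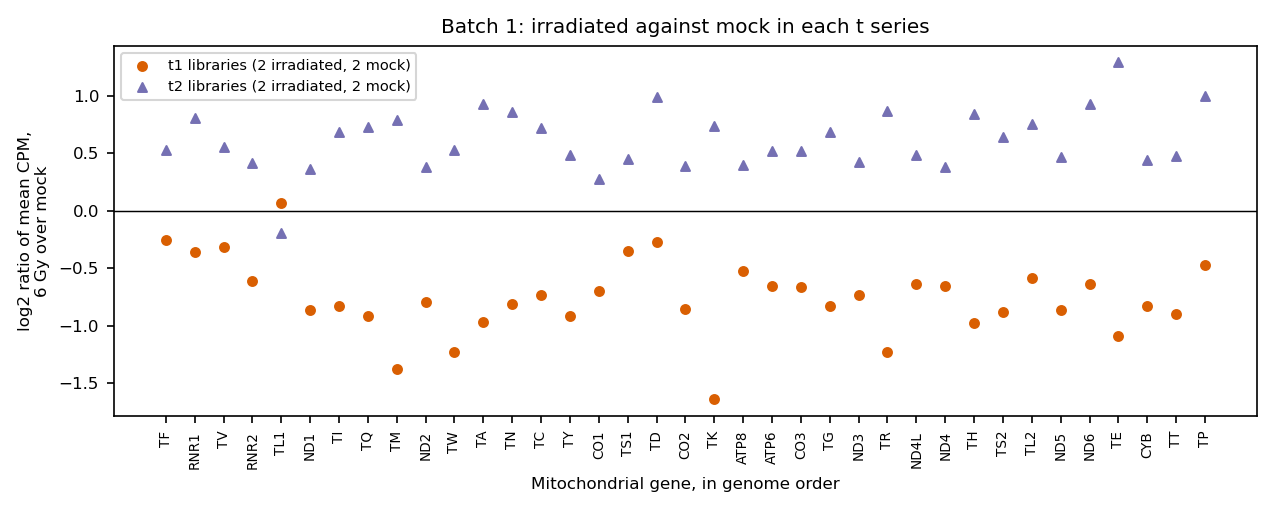
Log2 ratio of mean CPM, irradiated over mock (y axis), in the t1 libraries (circles, 2 irradiated and 2 mock) and the t2 libraries (triangles, 2 irradiated and 2 mock) of batch 1, for each mitochondrial gene in genome order (x axis). The t1 ratios are below 0 and the t2 ratios above 0 in all members except MT-TL1, where the order is turned.

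MT-TF and MT-TL2 also differed between the t libraries whatever the treatment. MT-TF had 93.4, 77.0, 102 and 40.9 CPM in the t1 libraries and 156, 231, 174 and 386.5 CPM in the t2 libraries. MT-TL2 had 51.47, 78.99, 51.8 and 35.26 CPM in t1 and 81.15, 83.71, 142.8 and 135.7 in t2. For both genes t2 was higher in each of the 4 replicates. The library with the highest MT-TF value, irradiated replicate 2 t2, also had the highest MT-RNR1 (4245 CPM). Its MT-RNR2 was 1.38 times as dense as MT-RNR1, where the other 7 libraries of batch 1 had ratios between 2.21 and 2.91. The share of mitochondrial counts from light-strand genes went the other way and was higher in t1 in each of the 4 replicates, for example 5.04% against 3.47% in mock replicate 1.

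After summing t1 and t2, 0 of 37 members passed an adjusted p of 0.05 for IR in batch 1 in edgeR, where 2.82% of 25889 genes did. At an unadjusted p under 0.05 there were 5 members, and DESeq2 called 0. The median log2 fold change was -0.09 over members and 0.00 over all genes, with 27 of 37 below 0. Both the direction and the lack of calls depended on single replicates. Each fit that left out a replicate did call members, lower in some fits and higher in others. Such a fit leaves a group with 1 sample. Without mock replicate 1 the median over members was -0.25, with 32 of 37 below 0. Without mock replicate 2 it was 0.11, with 27 of 37 above 0. Without irradiated replicate 1 or 2 it was -0.12 or -0.11, with 24 or 28 of 37 below 0. The smallest adjusted p in edgeR was 0.103, for MT-TM at -0.40 (SE 0.114). MT-RNR1 had 0.34 (SE 0.224), MT-RNR2 and the mRNAs lay near or below 0, and the 13 mRNAs had a median of -0.18.

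In vehicle cells of batch 2, IR likewise called 0 of 36 members in edgeR, where 1.10% of 28651 genes passed, with 1 member at an unadjusted p under 0.05 and 0 calls by DESeq2. The median over members was -0.19, with 32 of 36 below 0, against -0.01 over all genes. Both rRNAs and all 13 mRNAs were among the 32. This rested on 1 library: without vehicle replicate 4 the median over members was -0.005, with 18 of 36 below 0. In enzalutamide cells 0 of 36 members passed, where 0.918% of all genes did, with 3 members at an unadjusted p under 0.05 and 0 calls by DESeq2. There the median was 0.10, with 26 of 36 above 0. Without enzalutamide replicate 3 the median over members was 0.44, with 30 of 36 above 0. Without enzalutamide replicate 4 it was -0.16, with 22 of 36 below 0. Members passed in both of these fits, as higher in the first and as lower in the second, but each left a group with 1 sample. The enzalutamide replicates without IR, at 0.875% and 0.570% of counts, lay on either side of all 4 irradiated libraries of batch 2.

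MT-TL1 was the member at an unadjusted p under 0.05 with vehicle. It was lower after IR in both arms of batch 2, by 0.66 on the log2 scale with vehicle (SE 0.239, adjusted p = 0.328 by edgeR) and by 0.63 with enzalutamide (SE 0.239, adjusted p = 0.418 by edgeR), and so did not pass. The values of the 4 irradiated libraries, 572 to 634 CPM, lay below those of the 4 others, 681 to 1196. Of these others, 749, 1192 and 1196 CPM came from the batch 2 libraries with the most counts (16428667, 19905824 and 19469608). The 681 CPM came from the batch 2 library with the fewest (10494563), and a part of depth was not tested. The MT-TL1 share of mitochondrial counts was 8.30% to 9.24% in the irradiated libraries of batch 2 and 10.6% to 13.6% in the others, again without overlap. Neither separation was counted over all genes. In batch 1 the MT-TL1 share was 1.415% and 1.244% in irradiated replicates and 1.368% and 1.197% in mock, which overlap. The fit over both batches gave -0.38 (SE 0.133, adjusted p = 0.141 by edgeR). Its difference in IR effect between batches was 0.57 (SE 0.245, adjusted p = 0.844 by edgeR). Without the filter on low counts MT-TL1 passed in both arms and in the fit over both batches (adjusted p = 3.61e-11, 1.07e-09 and 0.00298 by edgeR). Its log2 fold changes there, -0.66, -0.62 and -0.33, were not larger. The SEs were smaller (0.0878, 0.0878 and 0.0819), but an SE here is computed from the same test statistic as the p-value and adds nothing to it. Why the p-values were smaller in that setting was not tested. With vehicle it also passed without enzalutamide replicate 3 (0.0421) or 4 (0.0405), and with enzalutamide it passed without enzalutamide replicate 4 (0.00891). Its size rested on single libraries: without vehicle replicate 4 the value with vehicle was -0.27 (adjusted p = 0.747 by edgeR), and without enzalutamide replicate 3 the value with enzalutamide was -0.12 (adjusted p = 0.825 by edgeR). Without vehicle replicate 4 the fit over both batches gave -0.16 (adjusted p = 0.472 by edgeR).

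Over both batches, with batch as a covariate, IR called 0 of 37 members in edgeR, where 4.05% of 29195 genes passed. There were 6 members at an unadjusted p under 0.05, and DESeq2 called 0. The median was -0.17 over members, with 32 of 37 below 0, and -0.02 over all genes. Without mock replicate 1 of batch 1 the median over members was -0.23, and without vehicle replicate 3 it was -0.20. Of the fits that left out a replicate only these called members, all lower, and each left a group with 1 sample. The sign of the median depended on the t libraries read. With t1 libraries alone the median over members was -0.54, with 35 of 36 below 0. With t2 libraries alone it was 0.21, with 36 of 37 above 0. The nearest to the threshold were the light-strand tRNAs MT-TY (tyrosine, -0.39, SE 0.116, adjusted p = 0.0694) and MT-TQ (glutamine, -0.36, SE 0.113, adjusted p = 0.0891), by edgeR. Among mRNAs MT-CO2 had -0.23 (SE 0.0859) and MT-CO1 -0.27 (SE 0.110). The difference of the IR effect between batches called 0 of 37 members, where 0.106% of all genes passed, with 7 members at an unadjusted p under 0.05 and 0 calls by DESeq2.

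Enzalutamide averaged over IR called 0 of 36 members in edgeR, where 0.0628% of 28651 genes passed, all of them lower. At an unadjusted p under 0.05 there was 1 member, MT-TP (0.28, SE 0.101, adjusted p = 0.736), and DESeq2 called 0. MT-TP had 8.34 and 8.37 CPM with vehicle, 7.50 and 7.43 with vehicle and IR, 10.25 and 10.2 with enzalutamide, and 8.74 and 9.41 with both. The median over members was -0.07, with 25 of 36 below 0, and 0.00 over all genes. Enzalutamide's interaction with IR called 0 of 36 members and 0% of all genes, with 1 member (MT-TY, 0.87, SE 0.286) at an unadjusted p under 0.05 and 0 calls by DESeq2. Each group had 2 replicates, and values such as -0.26 (SE 0.179) for MT-RNR2 after IR with vehicle, or -0.29 (SE 0.161) for MT-ND4L, could not be told from 0 at that spread.

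MT-ND6, the only mRNA of the light strand and a complex I subunit, had 999.9 and 1323 CPM in mock and 1039 and 1248 in irradiated cells of batch 1. In batch 2 it had 109 and 175 CPM with vehicle, 111 and 128 with vehicle and IR, 119 and 163 with enzalutamide, and 138 and 118 with both, and the 4 groups overlapped. Per length it had 2195 ± 300 in batch 1 (SD, n = 4) and 252 ± 46.6 in batch 2 (SD, n = 8). That was 0.804 ± 0.107 and 0.664 ± 0.161 times the density of MT-ND5, its neighbour, which is read from the other strand. Together the 9 light-strand genes held 4.46% ± 0.345 of mitochondrial counts in batch 1 and 2.55% ± 0.576 in batch 2. The highest in batch 2, 3.84%, was enzalutamide replicate 4, the library with the smallest mitochondrial share. Whether the counting used strand is not given in the sources used here. Without strand, reads of the opposite transcript over a light-strand gene would be counted as that gene's, so these values are uncertain.

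Copies of mitochondrial DNA in nuclear chromosomes can share reads with the members. Of 404 such copies, 363 had counts. They summed to 1938 to 2575 CPM in batch 1 and 347 to 500 CPM in batch 2, which is 5.28% to 6.03% and 4.87% to 6.13% of the members' counts. The highest by count were MTND2P28, MTATP6P1, MTCO1P12, MTCO2P12 and MTCO3P12. MTND2P28 had 385 ± 63.0 CPM in batch 1 (SD, n = 4) and 51.6 ± 9.09 in batch 2 (SD, n = 8). In the batch comparison 51 of 66 copies tested were higher in batch 1 and none lower, with a median log2 fold change of 1.76 against 0.02 for all genes. MTCO2P12 had 3.15 (SE 0.0834) and MTND2P28 2.83 (SE 0.115), near 2.80 and 2.83 of their mitochondrial counterparts. Both the copies and the genes were mostly higher in batch 1, where 32.7% of all genes were.

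The load was uneven over the members. Copies of MT-ND2, MT-CO1, MT-CO2, MT-ATP6 and MT-CO3 held between 15.5% and 49.05% as many counts as their gene, and those of MT-ATP8 7.83% to 14.6%. Copies of MT-ND1, MT-ND3, MT-ND4L, MT-ND4, MT-ND5, MT-ND6 and MT-CYB held 0.606% to 9.19%. How reads that match several places were counted is not given in the sources used here. In batch 1 the mRNAs with the lowest densities, MT-CO1, MT-CO2 and MT-CO3, were among those with the highest share in copies, so their levels are uncertain. In batch 2 MT-ND3 (211) and MT-ND6 (252) were also among the least dense, and their copies held 0.619% to 2.45% and 6.11% to 9.19% there. The part of this in the density profile was not tested.

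Nuclear genes that serve the mitochondrial genome showed few calls for the treatments. Among 16 genes of mitochondrial transcription (POLRMT, TFAM and others), none passed for IR in edgeR with vehicle, with enzalutamide, in batch 1 or over both batches, with 2, 3, 0 and 3 at an unadjusted p under 0.05. Of 19 genes of mtDNA replication and nucleotide supply, RRM2B, a p53-controlled ribonucleotide reductase subunit, rose after IR in every fit of the IR effect. Its log2 fold change was 0.72 (SE 0.107) with vehicle, 0.61 (SE 0.109) with enzalutamide, 1.00 (SE 0.104) in batch 1 and 0.85 (SE 0.0774) over both batches. These are not independent, since the last fit shares its samples with the others. Of 26 RNA processing genes tested, MTO1, which modifies mitochondrial tRNAs, rose over both batches (0.32, SE 0.0687, adjusted p = 0.00687 by edgeR).

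Over both batches 4.05% of all genes passed for IR, 2.39% as higher, and the counts in the 2 largest lists were near that share. Of 77 nuclear subunits of the respiratory chain tested, 3 rose after IR over both batches and none fell: SDHA of complex II (0.49, SE 0.0696), NDUFV3 of complex I (0.34, SE 0.0714) and COX6A1 of complex IV (0.52, SE 0.140). Of 77 mitochondrial ribosomal proteins tested, MRPL39, MRPL49 and MRPL27 rose and MRPL51 fell (-0.51, SE 0.0923). The list medians were 0.06 and 0.03, against -0.02 for all genes and -0.17 for the members. Enzalutamide averaged over IR called none of the genes in these 5 lists in edgeR, with 1, 2, 0, 4 and 5 at an unadjusted p under 0.05.

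Between batches the nuclear lists moved in both directions, as did all genes, of which 62.0% passed and 32.7% were higher in batch 1. In transcription 2 of 16 genes were higher in batch 1 and 7 lower, among the latter POLRMT (-1.04, SE 0.0881) and MTERF1 (-0.55, SE 0.0746). In replication 6 of 19 were higher and 10 lower, among the latter SSBP1, which coats single-stranded mtDNA (-1.04, SE 0.0777). In RNA processing 6 of 26 were higher and 10 lower, with LRPPRC, which stabilises mitochondrial mRNAs, at -0.92 (SE 0.0865). Of the respiratory subunits 28 of 77 were higher and 23 lower, and of the ribosomal proteins 44 and 15. The list medians were -0.01, -0.26, -0.10, 0.01 and 0.31 in that order, so that replication lay below and the ribosomal proteins above the 0.02 of all genes. The median of the members was 3.05. In the t-by-IR difference of batch 1, 21.8% of all genes passed as higher in t2 and 21.9% as lower. Of the respiratory subunits 6 were higher and 33 lower, and of the ribosomal proteins 8 and 42, with medians of -0.42 and -0.62 against -0.07 for all genes. Other lists lay on the members' side: 31 of 49 nuclear copies tested were higher in t2 and none lower (median 1.46), and of 10 luminal markers 7 were higher and 1 lower (median 0.76).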

How the data were processed

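The authors deposited a table of raw read counts per Ensembl identifier for each batch, a unit taken from the values: whole numbers with unequal library totals. Reads were handled with cutadapt 1.8.1, Bowtie2 2.4.4 and SAMtools 1.9 on hg38, per the submitters' processing notes. The counting tool, the use of strand and the handling of reads with several matches are not given in the sources used here. Of 60605 identifiers, 60463 matched a table of gene names, and members were taken by symbol. Lengths and positions came from RefSeq on GRCh38.p14.

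Counts of t1 and t2 were summed per replicate. Differences were tested with edgeR 4.0.16 in R 4.3.3 (filterByExpr by group, TMM factors, glmQLFit and glmQLFTest, two-sided), with Benjamini-Hochberg adjustment over all genes tested and a threshold of 0.05. Batch 2 was fitted as IR, enzalutamide and their interaction in 8 libraries. The effect averaged over IR came from a fit without the interaction. Both batches were fitted in the 8 samples without enzalutamide. The SE of an edgeR value is the size of the log2 fold change over the square root of the F statistic of its test. CPM and density use total counts. Alternatives were RLE factors, total counts, totals without the members, no filter, DESeq2 1.42.0, single t libraries, a replicate block and leaving out each replicate. The t-by-IR comparison was added after seeing the data. The edgeR step was also run on simulated counts. These did not copy the t-by-IR pattern of batch 1, and no outcome is given here, so no result rests on them. Members and lists were chosen with earlier results of these data known.

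All members could be named. Values were given for rRNAs, mRNAs, and the 3 tRNAs with the highest and the 3 with the lowest counts. All tRNAs passed the batch test, and only some of the others are given values. From each nuclear list up to 5 genes past the threshold were named, and from the nuclear copies the 5 with the highest counts. No sequence is printed, since the reference used here held none for these genes.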

Additional observations from a re-analysis of the deposited data

Results flagged for a closer look

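The effect of IR differed between the t2 and t1 libraries of batch 1 for 35 of 37 members by a test of the difference itself, where 43.7% of all genes tested were called. The log2 difference was 1.34 for MT-RNR1, 1.20 for MT-RNR2, 1.39 for MT-ND1, 1.73 for MT-ND6 and 2.32 for MT-TM. What t1 and t2 stand for is not given in the labels, and a cause was not tested.

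In 4 of 86 sets of 4 libraries, 1 value lay far from the other 3, which is about the 1 in 20 that chance gives. All were in mock cells of batch 1. MT-TI was lowest in replicate 1 t2 (65.0 CPM) and MT-TL2 lowest in replicate 1 t1 (51.5 CPM). MT-TS1 (70.7 CPM) and MT-TK (4.08 CPM) were highest in replicate 2 t1.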

How the results depend on the processing

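The difference between batches held in direction and call in 554 of 554 values from 15 other settings over the 37 members. Without the low-count filter edgeR called 1 member for IR with vehicle and 3 with enzalutamide, where 1.14% and 1.01% of all genes passed. It called 1 each in batch 1, over both batches and for the difference between batches, where 2.3%, 2.61% and 0.218% did. Leaving out 1 replicate put the members' median log2 fold change between -0.28 and -0.005 for IR with vehicle. It lay between -0.16 and 0.44 with enzalutamide, -0.25 and 0.11 in batch 1, and -0.23 and -0.07 over both batches. In these fits a group left with 1 sample is assumed to vary like the others. With t1 libraries alone edgeR called 22 members in batch 1, 6 over both batches and 4 for the difference between batches, all lower. Of all genes, 17.3%, 2.93% and 1.66% passed there in either direction. With t2 libraries alone it called 32 in batch 1 and 27 for the difference, all higher, where 44.7% and 20.3% of all genes passed. With t2 alone MT-RNR2 (0.51) and MT-ND6 (1.03) turned to higher after IR in batch 1. The causes were not tested.

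Samples of one number share only that number, with 2 in each group. Replicate differences of 2 groups correlated across genes at 0.36 in batch 1 and 0.248 to 0.44 in batch 2. With the replicate block edgeR called 1 member for IR with vehicle (MT-TL1, adjusted p = 0.0279), 9 in batch 1 (4 higher, 5 lower), 4 over both batches and 1 for the difference between batches, where 4.59%, 9.01%, 6.69% and 0.329% of all genes passed. Depth limits MT-TK, with 0 to 5 counts in a batch 2 library, and MT-TD, with 7 to 16.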
